A study of Mus musculus with 10 samples.

Results

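The receptors through which alveolar macrophages sense GM-CSF, M-CSF, G-CSF, TGF-beta and interleukin-4 were followed across 5 libraries of mouse alveolar macrophages. The genes were chosen by name: Csf2ra, Csf2rb, Csf2rb2, Csf1r, Csf3r, Tgfbr1, Tgfbr2, Il4ra, Il13ra1 and Il2rg, 10 genes in all. Of these, 8 were present in the table, with 16 of its 45913 transcripts, and Il13ra1 and Il2rg are not analysed here. The 8 genes stand among 26173 genes, of which 11336, all 8 receptors included, had at least 1 FPKM in at least 2 samples and were compared. FPKM is a fragment count scaled to transcript length and library size, so levels of different genes can be set side by side.

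RNA was sequenced from alveolar macrophages of C57BL/6 mice, labelled female and 16 weeks old, with 2 samples in each of 5 groups. From mice with a floxed Bach2 gene and a CD4cre transgene, a Cre driven by a T cell gene, came aberrant-marker macrophages (surface markers unlike those of controls), normal-marker macrophages (surface markers like those of controls) and, from control mice of that line, the conditional control. The other groups were germline Bach2 knockout mice and wild-type mice. Bach2 is a transcription repressor of lymphocytes and macrophages. CD4cre is active mainly in T cells, and the labels do not say whether the macrophages themselves lost Bach2. The aberrant-marker and normal-marker groups were set apart by surface markers, which the labels do not name, and the part of that choice in the levels of surface receptors was not tested.

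GM-CSF is the growth factor on which the development of alveolar macrophages rests. It binds the alpha chain Csf2ra and signals through the beta chain Csf2rb, which carries JAK2 and activates STAT5. M-CSF and interleukin-34 act through the receptor tyrosine kinase Csf1r, the main growth factor receptor of monocytes and of macrophages in most other tissues. TGF-beta binds the type II kinase Tgfbr2, which phosphorylates the type I kinase Tgfbr1 and so activates SMAD2 and SMAD3, and autocrine TGF-beta is known to maintain alveolar macrophages. Interleukin-4 and interleukin-13 act through Il4ra, which activates STAT6 and drives alternative activation.

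The 2 samples of a group differed by little more than counting noise and were counted as 1 library, and are called its 2 runs here. Pearson's r of log2(FPKM + 1) between them ranged over 0.996 to 0.999, and between groups over 0.845 to 0.929. The median squared difference of counts over their sum was 0.491 to 0.626 within groups, where counting alone gives 0.455, and 66.7 to 102 between groups. Each group therefore has n = 1, so that no difference was checked in a second library and no test was run. Depth, estimated from the worth of 1 read, was about 7413000 to 9333000 fragments per run, so that 1 read on a 2 kb transcript was worth 0.0536 to 0.0674 FPKM. Bach2 itself was at most 0.0761 FPKM in any run, too low to check the genotypes. All mice were labelled female, but Eif2s3y, a Y-linked gene, was at 41.1 and 38.7 FPKM in the germline knockout and 58.5 and 63.1 FPKM in the wild type, and Xist was at 3.72 FPKM or more in the runs of the conditional line only. The difference between the wild-type and conditional control libraries is therefore one of mouse line and sex-linked genes together.

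The beta chain of the GM-CSF receptor was higher in aberrant-marker macrophages and lower in the germline knockout, while the alpha chain was lower in both. Mice have a pair of beta chain genes next to each other on chromosome 15. Csf2rb (Entrez 12983) encodes the common beta chain of the GM-CSF, interleukin-3 and interleukin-5 receptors, and Csf2rb2 (Entrez 12984) encodes a beta chain for interleukin-3 alone. Their coding sequences are alike over 95.2% of 2628 aligned bases, with 125 differences and a longest identical run of 242 bases in the GENCODE M21 transcripts. The 90 coding bases within 1 exon at which they differ most are shown, because only such bases separate reads of the pair. They lie at chr15:78338897-78338986 on the plus strand for Csf2rb and at chr15:78294345-78294434 on the minus strand for Csf2rb2 (GRCm38), and capitals mark the 16 bases that differ.
Csf2rb: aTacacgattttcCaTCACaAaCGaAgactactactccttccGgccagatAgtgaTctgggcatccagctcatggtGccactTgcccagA
Csf2rb2: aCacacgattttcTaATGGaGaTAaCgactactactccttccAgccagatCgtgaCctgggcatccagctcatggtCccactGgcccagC
Of all 50-base windows of the Csf2rb transcript, 18.9% occurred exactly in the Csf2rb2 transcript, and 19.0% of Csf2rb2 windows occurred in Csf2rb. Reads from such windows cannot be given to either gene by sequence, so the single values of the pair are less certain than their sum.

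Csf2rb was at 404 and 389 FPKM in the runs of the aberrant-marker library and at 173 and 174 FPKM in the normal-marker library, against 169 and 156 FPKM in the conditional control. It was at 84.7 and 92.7 FPKM in the germline knockout, against 236 and 230 FPKM in the wild type. The aberrant-marker library was the highest of all 5 and the germline knockout the lowest, and the runs of no library overlapped with those of another. The difference in log2(FPKM + 1) was 1.28 in the aberrant-marker comparison (1.20 to 1.37 over the 4 choices of 1 run per library) and -1.38 in the germline comparison (-1.47 to -1.30). Normal-marker macrophages differed from the conditional control by 0.10, less than the 0.52 by which the control libraries differed.

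Csf2rb2 followed the same order at a lower level. It was at 94.4 and 89.5 FPKM in the aberrant-marker library and at 34.2 and 31.0 FPKM in the normal-marker library, against 29.3 and 31.6 FPKM in the conditional control. The germline knockout had 20.3 and 22.6 FPKM, against 45.3 and 43.9 FPKM in the wild type. Runs overlapped only between the normal-marker and conditional control libraries. The log2 difference was 1.56 (1.47 to 1.65) for aberrant-marker macrophages and -1.02 (-1.12 to -0.93) for the germline knockout. The ratio of Csf2rb2 to Csf2rb was 0.187 to 0.242 in the 5 libraries.

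Csf2ra (Entrez 12982), the ligand-binding chain, was the highest of the 8 receptors in every library but the aberrant-marker one, where Csf2rb exceeded it. It was at 356 and 358 FPKM in the aberrant-marker library and 583 and 580 FPKM in the normal-marker library, against 567 and 577 FPKM in the conditional control. The germline knockout had 401 and 427 FPKM, against 592 and 576 FPKM in the wild type. The log2 difference was -0.68 (-0.70 to -0.66) in aberrant-marker macrophages and -0.49 (-0.56 to -0.43) in the germline knockout, both short of 2-fold. The wild type differed from the conditional control by 0.03, and their runs overlapped. Among the genes at 1 FPKM or more, Csf2ra ranked 262 of 9031 in the aberrant-marker and 129 of 8770 in the normal-marker library, against 135 of 8973 in the conditional control, and 215 of 8544 in the germline knockout, against 127 of 8445 in the wild type. Within a library, the ratio of Csf2rb to Csf2ra does not depend on how libraries are scaled. It was 1.11 in aberrant-marker and 0.299 in normal-marker macrophages, against 0.284 in the conditional control, and 0.214 in the germline knockout, against 0.399 in the wild type.

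**Figure D1:**
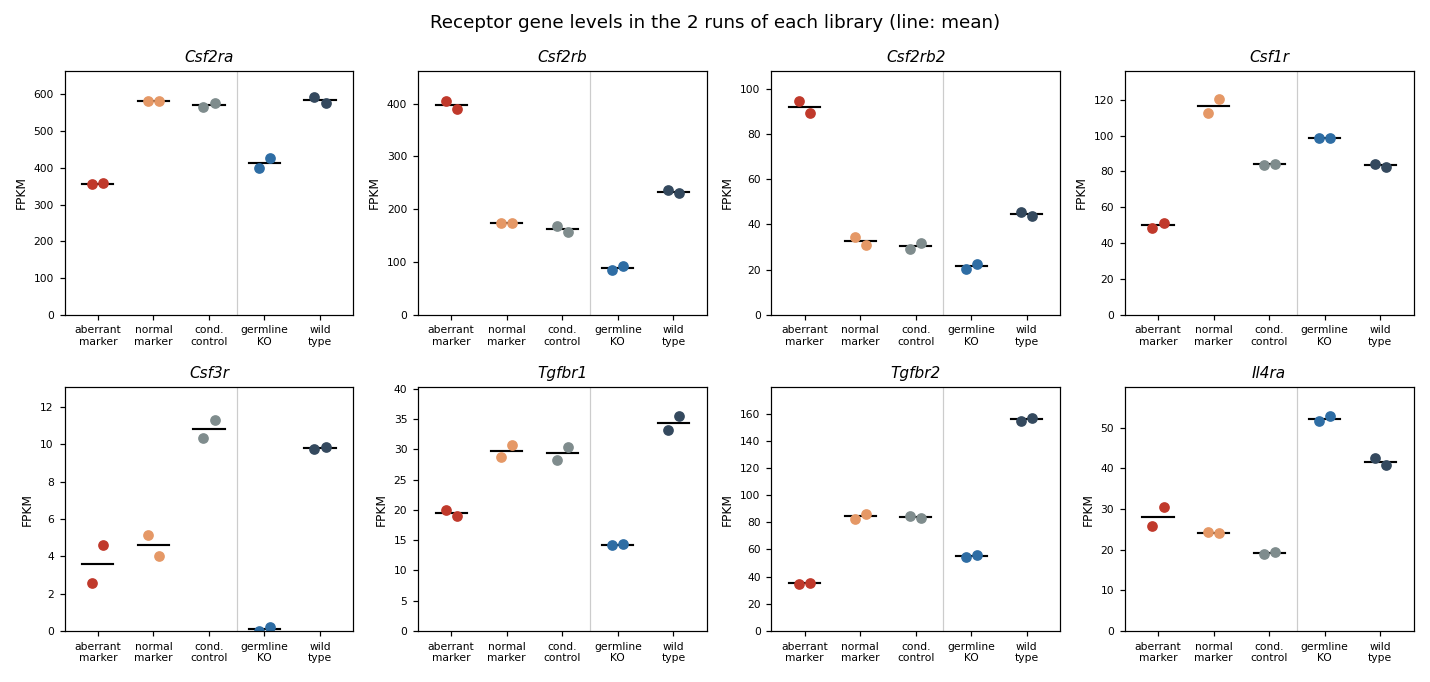
FPKM of the 8 receptor genes (linear axes from 0) in the 5 libraries. Points are the 2 runs and lines their mean. Csf2rb and Csf2rb2 were highest in the aberrant-marker library and lowest in the germline knockout, whereas Csf2ra, Tgfbr1 and Tgfbr2 were below their controls in both.

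**Figure D2:**
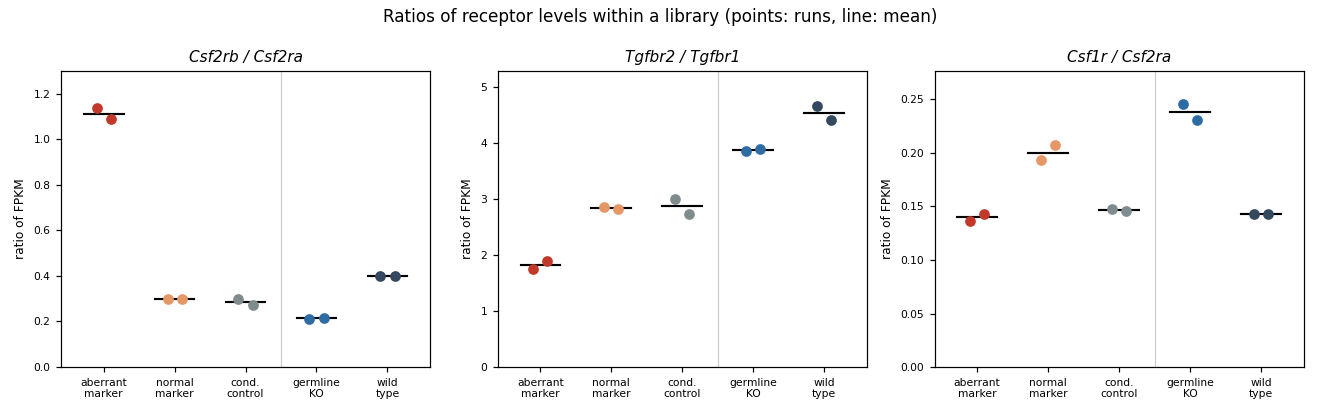
Ratios of the FPKM of receptor genes within a library. Points are the 2 runs and lines the mean. The ratio of Csf2rb to Csf2ra was 1.11 in the aberrant-marker library and 0.214 to 0.399 in the other libraries.

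The aberrant-marker library also held transcripts that mark other cells, and in bulk RNA fewer cells of a type and less RNA per cell cannot be told apart. Of 11 dendritic cell markers, 9 were at 1 FPKM or more in it and 5 in the conditional control, with summed levels of 3552 to 3586 FPKM and 31.2 to 34.4 FPKM over the runs. Of this list, Flt3, Fscn1 and Cd209a were at 37.4, 309 and 109 FPKM in the aberrant-marker library and listed at 0 in the conditional control. Clec9a and Xcr1 went the other way. Clec9a was at 0.620 FPKM, against 1.90 FPKM, and Xcr1 was below what 1 read gives, against 2.09 FPKM. At 4-fold, 9 of the 11 were higher and 0 lower, beside 4.09% and 3.76% of all genes. All 9 T cell markers measured were at 1 FPKM or more in the aberrant-marker library (summed 269 to 270.2 FPKM), against 1 of 9 in the control (2.55 to 2.84 FPKM). Of these, 6 passed the filter on low values through the aberrant-marker library alone, as did 1 of the 11 dendritic cell markers. For those genes, a higher level in that library was fixed by the filter. Of 9 markers of monocytes and interstitial macrophages, 7 were at 1 FPKM or more in the aberrant-marker library (917 to 921 FPKM in sum). In the control 5 were (86.9 to 88.0 FPKM). C1qa, C1qb and C1qc were at 193, 375 and 284 FPKM in the aberrant-marker library, against 0, 1.01 and 3.89 FPKM in the control. Mertk went the other way, at 8.72 FPKM against 73.0 FPKM. It was at 38.0 FPKM in the germline knockout, against 70.4 FPKM in the wild type. Ly6c2 and Cx3cr1 were below what 1 read gives in the aberrant-marker library. At 4-fold, 4 of the 9 markers were higher and 1 lower in the aberrant-marker comparison. The same markers were at 425 to 428 FPKM in the germline knockout (7 of 9), against 70.2 to 70.5 FPKM in the wild type (1 of 9). Dendritic cell markers were at 169 to 174 FPKM in the germline knockout (5 of 11), against 74.9 to 82.4 FPKM (4 of 11). At 4-fold, 1 of the 11 was higher (Ccr7, 71.6 FPKM against 0.0333 FPKM) and 0 lower. Irf4 and Fscn1 were at 12.7 and 9.52 FPKM and listed at 0 in the wild type. H2-Oa and Clec9a went the other way and were listed at 0 in the germline knockout. In the wild type H2-Oa was at 10.3 and 10.7 FPKM in the runs and Clec9a at 2.14 FPKM. Zbtb46 was at 0.0113 FPKM, against 0.171 FPKM, and Cd209a was listed at 0 in both. In the germline knockout Cd3e, Lck and Lat were listed at 0, and the T cell list summed to 41.6 to 41.9 FPKM (1 of 9, Il7r), against 0.166 to 0.225 FPKM in the wild type (0 of 9). Normal-marker macrophages had 84.3 to 96.8 FPKM of dendritic cell markers (6 of 11), 122 to 128 FPKM of monocyte markers (4 of 9) and 4.74 to 5.63 FPKM of T cell markers (1 of 9). The 4 B cell markers were listed at 0 in every library. The 5 markers of NK and innate lymphoid cells summed to 28.4 to 28.6 FPKM in the aberrant-marker library and to 1.62 FPKM at most elsewhere. The aberrant-marker sum was that of Nkg7 (15.9 FPKM), Gata3 (9.60 FPKM) and Il1rl1 (3.01 FPKM). Ncr1 was listed at 0 in every library. Klrb1c was below what 1 read gives in the aberrant-marker library and at 0.752 FPKM in the germline knockout. The 6 markers of eosinophils, basophils and mast cells summed to 3.34 FPKM at most. The 4 epithelial markers summed to 57.2 to 58.4 FPKM in the aberrant-marker and 56.7 to 67.3 FPKM in the normal-marker library, against 164 to 167 FPKM in the conditional control, and to 4.84 to 5.66 FPKM in the germline knockout, against 153 to 154 FPKM in the wild type. Of these epithelial markers, Sftpc and Krt8 were listed at 0 in every library, so the sums are those of Epcam and Scgb1a1. Epcam was at 26.0, 31.9 and 126 FPKM in the aberrant-marker, normal-marker and conditional control libraries. It was at 0.0360 FPKM in the germline knockout, against 147 FPKM in the wild type. Scgb1a1 was at 31.8, 30.1 and 39.7 FPKM, and at 5.22 FPKM against 6.56 FPKM. Epcam was highest in the control libraries, and which cells carried it was not tested. Its lower level in the knockout libraries therefore does not show fewer epithelial cells. The part of all the other cells named above in the receptor levels was not tested. Of 11 alveolar macrophage markers, 8 were at 1 FPKM or more in the aberrant-marker library and all 11 in the conditional control, and again 8 in the germline knockout and 11 in the wild type. Siglec5 (the entry of Siglec-F) and Marco were at 0.134 and 0.258 FPKM in the aberrant-marker library, against 197 and 224 FPKM in the control. The labelled cell type was not borne out by them there. Chil3 (8291 FPKM, against 9166 FPKM) and Fabp4 (83.7 FPKM, against 104 FPKM) were nearer the control. The list summed to 8841 to 8969 FPKM, against 15650 to 15867 FPKM. At 4-fold, 7 of the 11 were lower and 0 higher, beside 3.76% and 4.09% of all genes. Siglec5 was at 0.0247 FPKM and Marco at 13.5 FPKM in the germline knockout, against 151 and 339 FPKM in the wild type. Chil3 (46574 FPKM, against 9278 FPKM), Fabp4 (181 FPKM, against 145 FPKM) and Itgax (365 FPKM, against 289 FPKM) were higher there. The list summed to 47550 to 47775 FPKM, most of it Chil3, against 17760 to 17973 FPKM. At 4-fold, 1 of the 11 was higher and 6 lower, beside 2.73% and 3.36% of all genes.

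Csf1r (Entrez 12978), the M-CSF receptor, was lower in aberrant-marker macrophages and higher in the other knockout libraries. It was at 48.5 and 51.2 FPKM in the aberrant-marker library and at 113 and 120.2 FPKM in the normal-marker library, against 83.8 and 84.2 FPKM in the conditional control. It was at 98.6 and 98.7 FPKM in the germline knockout, against 84.4 and 82.4 FPKM in the wild type. The control libraries overlapped, and no other libraries did. The log2 difference was -0.74 (-0.78 to -0.70) for aberrant-marker macrophages, 0.47 (0.41 to 0.52) for normal-marker macrophages and 0.24 (0.22 to 0.26) for the germline knockout. Aberrant-marker and normal-marker macrophages of the same mouse line were 2.34-fold apart. The ratio of Csf1r to Csf2ra in the aberrant-marker library (0.140) was close to that of the conditional control (0.147), while it was 0.200 in the normal-marker library, and 0.238 in the germline knockout against 0.143 in the wild type.

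Csf3r (Entrez 12986), the G-CSF receptor best known from neutrophils and their precursors, was the lowest of the 8 genes and was lower in all 3 knockout libraries. It was at 2.59 and 4.63 FPKM in the aberrant-marker library and 5.15 and 4.04 FPKM in the normal-marker library, which overlapped, against 10.3 and 11.3 FPKM in the conditional control. The runs of the germline knockout gave 0.00193 and 0.216 FPKM, a level of a few reads at most, against 9.75 and 9.84 FPKM in the wild type. The log2 differences were -1.36 (-1.78 to -1.01), -1.08 (-1.29 to -0.88) and -3.28 (-3.44 to -3.14) for the aberrant-marker, normal-marker and germline knockout libraries, and every level of this gene lay under the floor of 20 FPKM set for a call. The germline value depended on the pseudocount and was -5.57 with 0.1 FPKM in place of 1 FPKM. The wild type differed from the conditional control by -0.13. The 7 neutrophil markers summed to 8.56 to 16.1 FPKM in the aberrant-marker library (2 at 1 FPKM or more) and 73.8 to 79.5 FPKM in the normal-marker library (3), against 54.0 to 58.3 FPKM in the conditional control (2). They summed to 45.9 to 56.4 FPKM in the germline knockout (2), against 32.0 to 33.1 FPKM in the wild type (2). Ly6g, Retnlg and Camp were listed at 0 in every library, and the part of neutrophils in Csf3r was not tested. Mmp8 was at 1.54, 39.6 and 43.7 FPKM in the aberrant-marker, normal-marker and conditional control libraries. It was at 0.782 FPKM in the germline knockout, against 27.0 FPKM in the wild type. S100a8 and Cxcr2 went the other way there, at 43.7 and 6.30 FPKM, against 4.83 and 0.700 FPKM. They were also higher in the normal-marker library, at 31.3 and 5.71 FPKM, against 12.3 and 0.158 FPKM in the conditional control. In the aberrant-marker comparison the log2 difference of S100a8 was -0.21 (-0.95 to 0.40), and Cxcr2 was at 0.313 FPKM.

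Both TGF-beta receptor chains were lower in aberrant-marker and germline knockout macrophages and at the control level in normal-marker macrophages. Tgfbr2 (Entrez 21813), the ligand-binding type II kinase, was at 35.0 and 35.7 FPKM in the aberrant-marker library and 82.2 and 86.4 FPKM in the normal-marker library, against 84.5 and 83.3 FPKM in the conditional control. It was at 54.6 and 55.6 FPKM in the germline knockout, against 155 and 157 FPKM in the wild type. The normal-marker and conditional control runs overlapped, and the aberrant-marker library was the lowest of all. The log2 difference was -1.23 (-1.25 to -1.20) for aberrant-marker, 0.01 (-0.04 to 0.05) for normal-marker and -1.48 (-1.51 to -1.46) for germline knockout macrophages. Tgfbr2 was also 1.86-fold higher in the wild type than in the conditional control (0.88 on the log2 scale). Against the conditional control, the germline knockout differed by -0.60 in log2, under 2-fold, and against the wild type the aberrant-marker library differed by -2.11, over 4-fold.

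Tgfbr1 (Entrez 21812), the type I kinase, was at 20.005 and 18.9 FPKM in the aberrant-marker library and 28.8 and 30.7 FPKM in the normal-marker library, against 28.2 and 30.4 FPKM in the conditional control. It was at 14.1 and 14.3 FPKM in the germline knockout, the lowest library, against 33.1 and 35.5 FPKM in the wild type. The log2 difference was -0.57 (-0.66 to -0.47) for aberrant-marker, 0.02 (-0.08 to 0.12) for normal-marker and -1.22 (-1.27 to -1.16) for germline knockout macrophages. The ratio of Tgfbr2 to Tgfbr1 was 1.81 in the aberrant-marker and 2.84 in the normal-marker library, against 2.86 in the conditional control, and 3.88 in the germline knockout, against 4.54 in the wild type.

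Il4ra (Entrez 16190), the chain that interleukin-4 and interleukin-13 receptors share, was highest in the germline knockout, and differed more between the controls than between any knockout library and its own control. It was at 25.9 and 30.4 FPKM in the aberrant-marker library and 24.2 and 24.1 FPKM in the normal-marker library, against 18.9 and 19.4 FPKM in the conditional control. It was at 51.6 and 52.8 FPKM in the germline knockout, against 42.5 and 40.7 FPKM in the wild type. No runs of different libraries overlapped. The log2 difference was 0.53 (0.40 to 0.65), 0.32 (0.30 to 0.34) and 0.32 (0.27 to 0.37) in the aberrant-marker, normal-marker and germline comparisons, and 1.08 (1.04 to 1.13) in the wild type against the conditional control. The direction for aberrant-marker and normal-marker macrophages turned with the control: against the wild type they were -0.55 and -0.76. Only the germline knockout lay above both controls, by 1.401 in log2 (1.37 to 1.43) over the conditional control.

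The share of the Il4ra transcript entries shifted across the libraries. The curated entry NM_001008700.3 held 88.7% of the gene's FPKM in the aberrant-marker library and 59.1% in the normal-marker library, against 34.4% in the conditional control, and 27.8% in the germline knockout, against 14.6% in the wild type. The predicted entry XM_006507388.1 held the rest. The split was less even between runs than the sum, with 98.9% and 80.1% in the runs of the aberrant-marker library. Summed over entries, Il4ra in that library was 1.47-fold the conditional control, whereas the curated entry alone was at 25.0 FPKM there and 6.59 FPKM in the control. For Csf2rb2, NM_001287389.1 held 84.0% in the aberrant-marker and 76.6% in the normal-marker library, against 69.3% in the conditional control, and 69.0% in the germline knockout, against 36.8% in the wild type. For Tgfbr2, NM_029575.3 held 62.0% to 78.9% in the 5 libraries. For Csf2rb, XM_006520389.1 held 61.9% to 77.0%, and Csf2ra and Tgfbr1 had 1 entry each. For Csf3r, a gene of low level, NM_007782.3 held 10.3% in the aberrant-marker and 92.7% in the normal-marker library, against 82.0% in the conditional control. Its entry NM_001252651.1 averaged 2.96 FPKM in the aberrant-marker library, against 1.44 FPKM in the conditional control, opposite in direction to the sum. Shares of overlapping transcripts are estimates, and what the entries differ in was not examined.

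**Figure D3:**
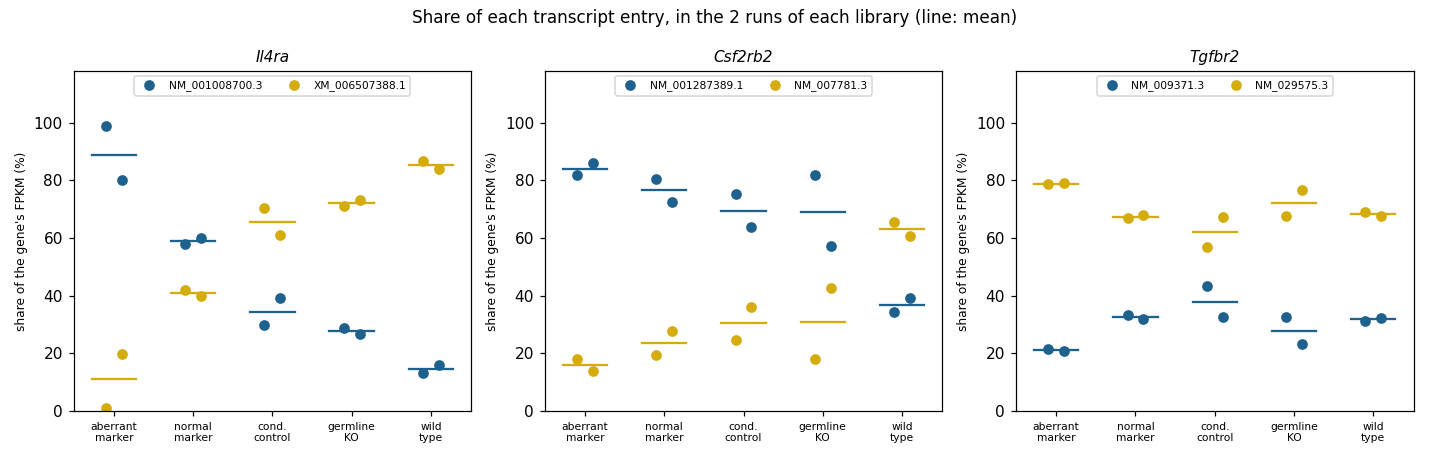
Share of each transcript entry in the FPKM of Il4ra, Csf2rb2 and Tgfbr2, in percent. Points are the 2 runs and lines the share of the mean. NM_001008700.3 of Il4ra held 88.7% in the aberrant-marker library and 14.6% in the wild type.

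Across the 8 receptors, 0 differed 4-fold in any of the 5 comparisons under the size rule, which asks for 4-fold in the mean as well as for each pair of single runs, and for a level of 20 FPKM or more in whichever library is higher. Of all genes, the same rule called 7.85% in the aberrant-marker comparison (4.09% higher, 3.76% lower), 1.77% in the normal-marker comparison (0.935% higher, 0.838% lower) and 7.28% between aberrant-marker and normal-marker macrophages (4.02% higher, 3.26% lower). It called 6.1% in the germline comparison (2.73% higher, 3.36% lower) and 2.11% in the wild type against the conditional control (0.935% higher, 1.17% lower). With a 2-fold threshold, Csf2rb and Csf2rb2 were higher and Tgfbr2 was lower in aberrant-marker macrophages than in the conditional control, 2 of 8 and 1 of 8 beside 8.6% and 9.13% of all genes (17.7% in either direction). In the germline comparison Csf2rb, Tgfbr1 and Tgfbr2 were lower, 3 of 8 beside 8.98% of all genes, and 0 of 8 were higher, beside 6.13% (15.1% in either direction). Csf2rb2 missed that count because the smallest run difference was -0.93. In the normal-marker comparison 0 of 8 passed 2-fold in either direction, beside 7.38% of all genes (3.34% higher, 4.04% lower). Between aberrant-marker and normal-marker macrophages, Csf2rb and Csf2rb2 were higher (2 of 8, beside 9.27%) and Csf1r and Tgfbr2 lower (2 of 8, beside 8.19%, and 17.5% in either direction). Between the controls, Il4ra was higher in the wild type (1 of 8, beside 3.81% of all genes) and 0 of 8 were lower (beside 4.15%, and 7.96% in either direction). The median log2 difference of the 8 genes was -0.62 in the aberrant-marker, 0.06 in the normal-marker and -1.12 in the germline comparison. It was 0.37 in the wild type against the conditional control, so the controls were themselves apart. The median over all 11336 genes was 0 in each of these.

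The 2-fold calls depended on the control. Against the conditional control, Csf2rb (-0.87), Tgfbr1 (-0.99) and Tgfbr2 (-0.60) were not called in the germline knockout, and Il4ra was called higher (1.401). Against the wild type, Csf2rb (0.76) and Csf2rb2 (1.03, lowest run difference 0.97) were not called in aberrant-marker macrophages. The side of both controls on which a gene lay is a description apart from these calls. Csf2ra, Csf3r, Tgfbr1 and Tgfbr2 were below both control libraries in germline knockout as well as aberrant-marker macrophages. Csf2rb and Csf2rb2 were above both in aberrant-marker macrophages (log2 differences of 0.76 and 1.03 from the wild type) and below both in the germline knockout (log2 differences of -0.87 and -0.49 from the conditional control). Csf1r was below both in aberrant-marker macrophages and above both in normal-marker macrophages and the germline knockout.

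**Figure D4:**
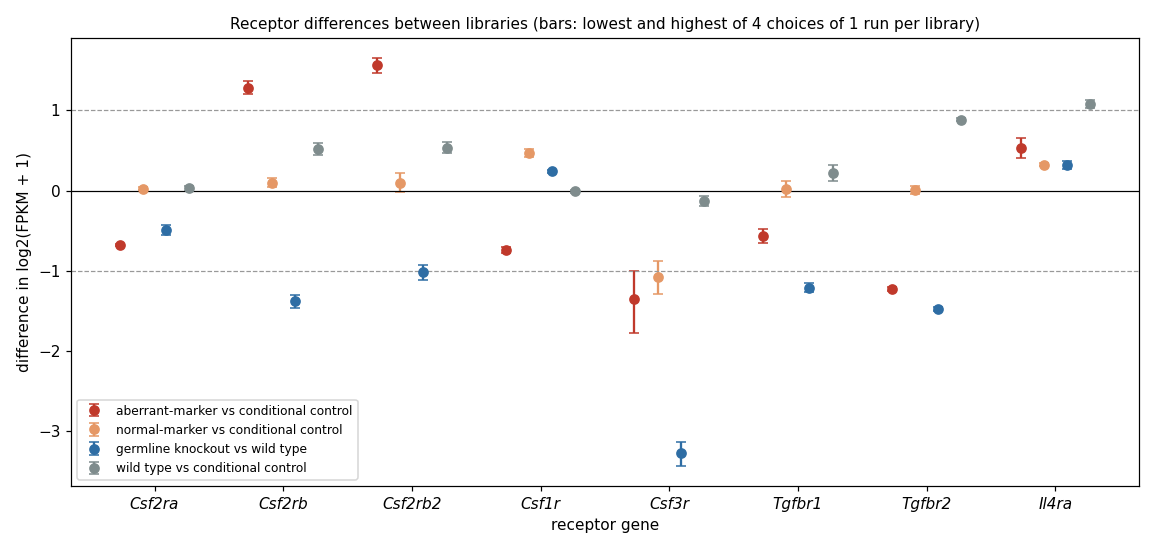
Difference in log2(FPKM + 1) of each receptor gene in 3 knockout comparisons and between the controls. Points are differences of library means, bars run over the 4 choices of 1 run per library, and dashed lines mark 2-fold. Csf2rb was at 1.28 in the aberrant-marker comparison and -1.38 in the germline comparison.

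Of the ligands of these receptors, Csf1, which encodes M-CSF, passed the 4-fold rule in the aberrant-marker and germline comparisons. It was at 30.6 and 28.4 FPKM in the aberrant-marker and 8.57 and 11.1 FPKM in the normal-marker library, against 3.58 and 4.09 FPKM in the conditional control, and at 78.5 and 82.1 FPKM in the germline knockout, while it was listed at 0 in both wild-type runs. Tgfb1, the ligand of the TGF-beta receptors, was at 33.2 and 34.4 FPKM in the aberrant-marker library, against 77.4 and 74.5 FPKM in the conditional control, and at 89.7 and 90.2 FPKM in the germline knockout, against 71.0 and 72.2 FPKM in the wild type. Csf2, which encodes GM-CSF, was at 4.04 and 5.98 FPKM in the aberrant-marker library and listed at 0 in the other 4 libraries. Tgfb2 averaged 0.221 FPKM or less in the knockout libraries, against 3.61 FPKM in the conditional control and 4.63 FPKM in the wild type. Il34, Csf3, Tgfb3, Il13, Il3 and Il5 were listed at 0 in all libraries, and Il4 was at 0.465 FPKM in the aberrant-marker library alone. In the list of 11 ligands, 1 was higher and 0 lower at 4-fold in each of these comparisons, beside 4.09% and 2.73% of all genes higher. Only 4 of the 11 passed the filter on low values, Csf2 through the aberrant-marker library alone.

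Among 23 signalling genes, the kinase and the transcription factor downstream of the beta chain were higher in aberrant-marker macrophages. Jak2 was at 155 and 158 FPKM there, against 12.5 and 13.3 FPKM in the conditional control, and Stat5a, which has the close paralogue Stat5b, at 199 and 205 FPKM, against 15.4 and 16.6 FPKM. In the germline knockout Jak2 was at 45.3 and 46.5 FPKM, against 7.60 and 7.18 FPKM in the wild type, whereas Stat5a was at 26.4 and 25.4 FPKM, against 23.1 and 23.7 FPKM. At 4-fold, 2 genes were higher and 1 lower (Plcg2, a phospholipase, at 5.70 FPKM against 41.7 FPKM) in the aberrant-marker comparison, beside 4.09% and 3.76% of all genes. In the germline comparison 1 was higher and 0 lower, beside 2.73% and 3.36%, so a count of 1 in 23 is near the share of all genes. In normal-marker macrophages, where 0.935% of all genes were higher and 0.838% lower, Jak3 was higher (27.6 FPKM against 3.58 FPKM in the conditional control) and Tyk2 lower (7.71 FPKM against 40.1 FPKM). Stat6, through which Il4ra signals, was at 88.7 FPKM in the aberrant-marker and 99.0 FPKM in the normal-marker library, against 92.0 FPKM in the conditional control, and at 50.3 FPKM in the germline knockout, against 67.2 FPKM in the wild type. The list median was 0.33 in the aberrant-marker comparison and 0.14 in the germline comparison, beside 0 over all genes.

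Feedback inhibitors of cytokine receptors, which are known STAT targets, were among the higher genes in the aberrant-marker and germline knockout libraries. Of 16 negative regulators, 5 were higher and 1 lower at 4-fold in the aberrant-marker comparison, beside 4.09% and 3.76% of all genes. Cish was at 160.3 and 173 FPKM in the aberrant-marker library, against 11.8 and 12.1 FPKM in the conditional control, Socs2 at 244 and 230.1 FPKM, against 30.5 and 33.9 FPKM, and Socs3 at 122 and 125 FPKM, against 15.4 and 16.3 FPKM. Socs1 was at 87.4 and 82.0 FPKM there, and at 0.133 FPKM and 0 in the runs of the control. Smurf1, a ubiquitin ligase of the TGF-beta and BMP pathway, was at 59.2 FPKM, against 5.85 FPKM. The gene lower in the list was Ptpn6, the phosphatase SHP-1, at 47.97 FPKM, against 289 FPKM. In the germline comparison 3 were higher and 0 lower, beside 2.73% and 3.36% of all genes: Socs3 (116 and 117 FPKM, against 4.95 and 5.86 FPKM in the wild type), Socs1 (45.3 and 41.0 FPKM, and listed at 0 in the wild type) and Smurf1 (40.6 FPKM, against 0.0371 FPKM). Cish was at 49.6 and 49.5 FPKM in the germline knockout, against 20.004 and 18.3 FPKM in the wild type, short of 4-fold. In normal-marker macrophages 0 of 16 passed 4-fold, beside 1.77% of all genes, with Cish at 14.1 FPKM against 11.9 FPKM in the conditional control, although Socs1 was at 7.82 FPKM against 0.0667 FPKM. The list median, over the 13 genes that passed the filter, was 1.80, 0.18 and 0.55 in the aberrant-marker, normal-marker and germline comparisons. T cells and dendritic cells express many of these genes too, and most of their markers were higher in the aberrant-marker library, as given above. In the germline comparison 1 of 9 T cell markers and 1 of 11 dendritic cell markers were higher at 4-fold. The part of these cells in the levels was not tested.

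**Figure D5:**
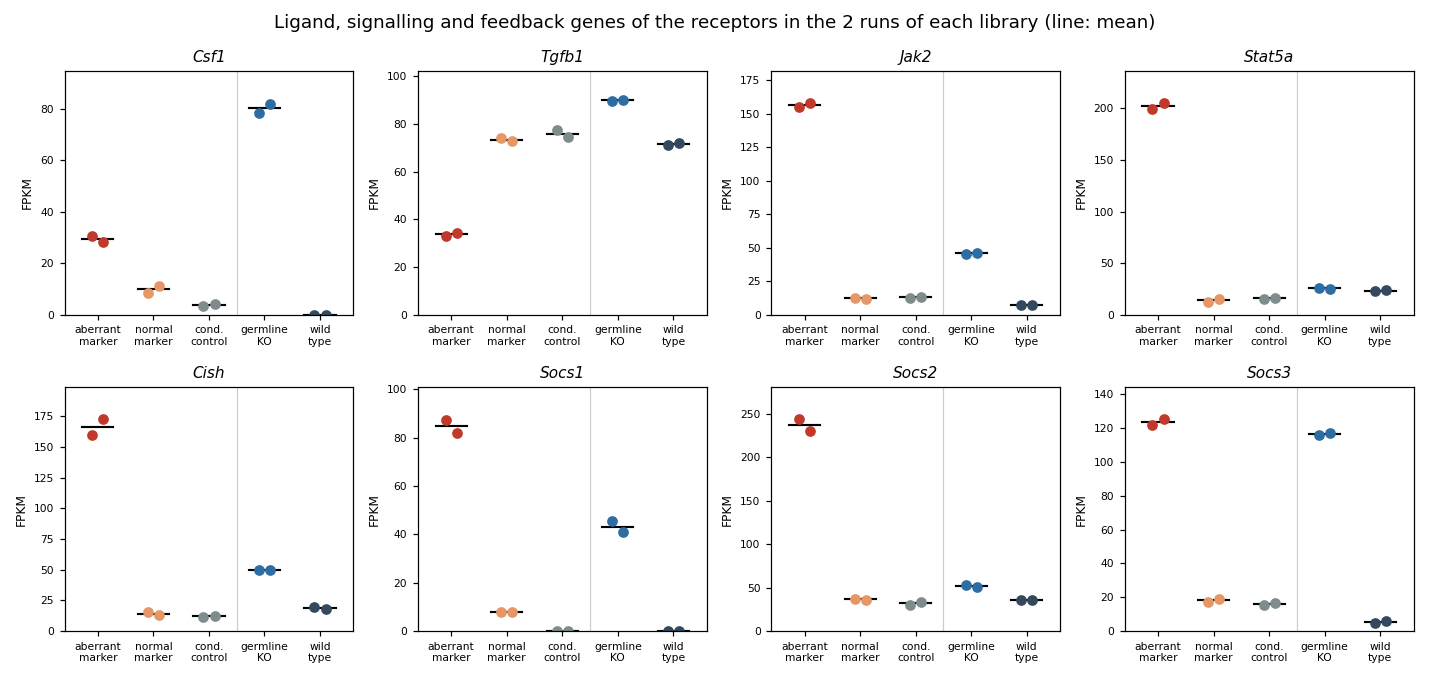
FPKM (linear axes from 0) of ligands (Csf1, Tgfb1), signalling genes (Jak2, Stat5a) and feedback inhibitors (Cish, Socs1, Socs2, Socs3) in the 5 libraries. Points are the 2 runs and lines their mean. Jak2, Socs1 and Socs3 were above the controls in both the aberrant-marker and the germline knockout library, and Stat5a and Socs2 were highest in the aberrant-marker library.

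Receptors that share chains or ligands with the 8 genes were also high in some knockout libraries. Of 20 measured, 4 were higher and 0 lower at 4-fold in the aberrant-marker comparison, namely Il7r (108 FPKM), Il21r (48.6 FPKM), Flt3 (37.4 FPKM) and Il2ra (29.3 FPKM), all at 0.187 FPKM or less in the conditional control. Of all genes, 4.09% were higher and 3.76% lower in that comparison. Of the 17 that passed the filter, 4 did so through the aberrant-marker library alone. Il21r and Il2ra were below 1 FPKM in every run of the other libraries, so that their higher level was fixed by the filter. Il7r and Flt3 were already counted among the T cell and dendritic cell markers above. The count of 4 is therefore not separate from those marker lists. Il7r, Il21r and Il2ra belong to receptors that use the common gamma chain in lymphocytes, and Flt3 is a dendritic cell growth factor receptor. In the germline comparison 3 were higher and 0 lower, beside 2.73% and 3.36% of all genes: Il7r (41.7 FPKM, against 0.0156 FPKM in the wild type), Crlf2, the receptor chain of TSLP (107 FPKM, against 13.1 FPKM), and Il3ra, the alpha chain of the interleukin-3 receptor (21.9 FPKM, against 0.919 FPKM). Crlf2 was at 60.3 FPKM in the aberrant-marker and 80.7 FPKM in the normal-marker library, against 64.8 FPKM in the conditional control, so its difference depended on the control used. Il3ra was at 24.9 FPKM in the aberrant-marker and 1.47 FPKM in the normal-marker library, against 6.21 FPKM in the conditional control.

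Of 24 genes known to depend on GM-CSF or TGF-beta, 1 was higher and 6 lower at 4-fold in the aberrant-marker comparison, beside 4.09% and 3.76% of all genes, and 0 were higher and 4 lower in the germline comparison, beside 2.73% and 3.36%. Fabp1, a fatty acid binding protein, was at 9.56 FPKM in the aberrant-marker library, against 507 FPKM in the conditional control, and at 0.178 FPKM in the germline knockout, against 787 FPKM in the wild type. Runx1 was at 8.81 FPKM in the aberrant-marker library, against 54.0 FPKM in the conditional control. Id2, a helix-loop-helix inhibitor, was the gene higher, at 730.5 FPKM against 173 FPKM. The list median was -0.93 and -0.63 in these comparisons and -0.17 in the normal-marker comparison, where 0 of 24 passed 4-fold. Pparg, the factor that GM-CSF induces in this lineage, was at 31.2 FPKM in the aberrant-marker and 147 FPKM in the normal-marker library, against 95.3 FPKM in the conditional control, and at 79.3 FPKM in the germline knockout, against 153 FPKM in the wild type.

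Of 24 measured targets of interleukin-4, 12 were higher and 2 lower at 4-fold in the aberrant-marker comparison, beside 4.09% and 3.76% of all genes. In the normal-marker comparison 1 was higher and 0 lower, beside 0.935% and 0.838%, and in the germline comparison 8 were higher and 0 lower, beside 2.73% and 3.36%. Mgl2, a lectin, was at 285 FPKM in the aberrant-marker library and below what 1 read gives in the conditional control, and at 45.1 FPKM in the germline knockout, against 0.174 FPKM in the wild type. Pdcd1lg2, the ligand PD-L2, was at 122 FPKM in the aberrant-marker library, against 1.14 FPKM in the conditional control, and at 18.8 FPKM in the germline knockout, against 4.10 FPKM in the wild type. The lower genes were the mannose receptor Mrc1 (36.3 FPKM, against 167 FPKM) and Myc (7.30 FPKM, against 52.9 FPKM). Several of these genes are also expressed by dendritic cells, whose part in the counts was not tested, and 3 of the 23 that passed the filter did so through the aberrant-marker library alone. Cish stood in this list as well as among the negative regulators, so the counts of these lists are not separate. Of 15 genes of TGF-beta activation, 0 passed 4-fold in the 3 knockout comparisons, beside 7.85%, 1.77% and 6.1% of all genes, with the integrin chains Itgb5 at 45.8 FPKM in aberrant-marker macrophages against 98.8 FPKM in the conditional control and Itgav at 10.4 FPKM against 4.78 FPKM.

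Promoters of 6 of the 8 receptor genes, 7 promoters in all, were found in the RefSeq table of GRCm38.p6, each reaching from 250 bases before to 50 bases after the start. They were searched on both strands for GAGGAA, a core of PU.1-type ETS sites, TGANTCA, the core of AP-1 and Maf recognition elements to which Bach proteins bind, and TTCNNNGAA, the palindrome of STAT5. GAGGAA occurred in promoters of Csf2ra, Csf2rb2, Csf3r, Tgfbr1 and Tgfbr2 and in 28.3% of all 32851 promoters. For Tgfbr1 it occurred in the promoter at chr4:47385966-47386265 and not in that at chr4:47352972-47353271. TTCNNNGAA occurred in Csf2rb2 and in 8.30% of all promoters. TGANTCA occurred in 0 of the 7 and in 7.81% of all promoters. Shown are the promoters of a receptor lower in both knockouts (Csf2ra, chr19:61228369-61228668, minus strand), of a beta chain that differed in opposite directions (Csf2rb2, chr15:78305672-78305971, minus strand) and of Tgfbr2 (chr9:116175314-116175613, minus strand), each 5′ to 3′ on the gene's strand with matches in capitals.
Csf2ra: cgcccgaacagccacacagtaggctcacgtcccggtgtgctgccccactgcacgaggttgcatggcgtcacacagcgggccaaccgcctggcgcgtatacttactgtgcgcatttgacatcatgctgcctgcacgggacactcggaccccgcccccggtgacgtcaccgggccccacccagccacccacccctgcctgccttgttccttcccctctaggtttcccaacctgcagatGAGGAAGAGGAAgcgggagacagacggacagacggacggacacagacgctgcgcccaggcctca
Csf2rb2: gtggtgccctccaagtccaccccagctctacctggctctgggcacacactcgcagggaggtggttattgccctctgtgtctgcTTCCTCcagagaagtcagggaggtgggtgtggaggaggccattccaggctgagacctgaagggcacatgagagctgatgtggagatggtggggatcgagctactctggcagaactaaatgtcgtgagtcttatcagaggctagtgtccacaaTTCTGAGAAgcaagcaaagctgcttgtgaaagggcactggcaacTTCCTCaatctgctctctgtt
Tgfbr2: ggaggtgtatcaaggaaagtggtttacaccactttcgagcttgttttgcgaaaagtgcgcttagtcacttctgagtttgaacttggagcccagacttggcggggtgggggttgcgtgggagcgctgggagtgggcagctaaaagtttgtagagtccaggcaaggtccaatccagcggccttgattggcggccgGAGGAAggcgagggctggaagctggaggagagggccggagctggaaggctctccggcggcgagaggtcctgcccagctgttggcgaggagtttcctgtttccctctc
Csf2ra held 2 adjoining GAGGAA matches, and Csf2rb2 held 2 on the other strand and 1 TTCNNNGAA match that overlaps neither. A match is a description of the letters and not of binding.

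The genes whose levels followed each receptor most closely over the 5 libraries were sought among 5341 genes with at least 20 FPKM in their highest library. Likeness was the root mean square difference of log2(FPKM + 1) after each profile was centred. Csf2ra was closest to Cd24a (0.01995), Hcfc1r1 (0.0518) and Dhrs3 (0.0635). Csf2rb was closest to Ccnd2 (0.106), the cyclin D2 gene, which was at 63.2 FPKM in the aberrant-marker and 28.8 FPKM in the normal-marker library, against 27.7 FPKM in the conditional control, and at 13.1 FPKM in the germline knockout, against 44.4 FPKM in the wild type. Eps15, an endocytic adaptor, was the second closest to Csf2rb (0.143) and to Csf2rb2 (0.0884), whose closest gene was Ctdnep1 (0.0483). Csf1r was closest to Fbxl5 (0.0711), Tgfbr1 to Cript (0.0492), Tgfbr2 to Nop9 (0.0864) and Il4ra to Sec61g (0.0784). With 5 points per profile, likeness of this size is a description only.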

How the data were processed

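Per the labels' protocols, 100 pg of RNA per sample were amplified with a SMARTer low-input kit in 18 PCR cycles, sheared by sonication and made into libraries. The labels mention neither molecular identifiers nor strand marking. The authors deposited FPKM values for RefSeq transcripts. The unit was read from the values, since no label or header names it. The tools named, with no role given, are Bowtie 1.1.2 and eXpress 1.5.1, per the submitters' processing notes. Genome build and filters: not given in the sources used here. All 10 columns matched a sample title and 0 were left out. Transcripts of one Entrez gene were added up (pandas 2.3.3, Python 3.11.15) and kept as deposited (column sums 625660 to 668491). Genes reaching 1 FPKM in 2 or more columns were compared after adding a pseudocount of 1 FPKM, which understates changes of low genes. Depth used GENCODE M21 lengths of 9126 genes with 1 transcript over 1.5 kb and is approximate. The 2 columns of a group were averaged to 1 library, so no test was run. A gene was called at 4-fold (2 log2 units) with a floor of 20 FPKM, and a 2-fold threshold (1 log2 unit) was the listed alternative. The rule was tested on simulated data. With 1 library per group, this cannot show how often the rule calls genes between libraries of the same group. Alternatives were a pseudocount of 0.1 FPKM, 2 other scalings, no filter, a floor of 5 FPKM, the strongest transcript per gene, the beta chain genes summed, each run left out, and the other control. Receptors were all named, other genes of the lists where called, up to 6 per list, and ligands whatever their value. Some genes stood in more than 1 list, so the counts of different lists are not independent. Some further list genes, such as Stat6, Pparg, Itgb5 and Cish in normal-marker macrophages, were chosen once their values were seen. The members and lists were chosen with earlier results of these data known.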

Additional observations from a re-analysis of the deposited data

Results flagged for a closer look

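For Csf2rb, Csf2rb2 and Csf1r, every choice of runs pointed one way in aberrant-marker macrophages and the opposite way in the germline knockout, each against its own control. The aberrant-marker difference minus the germline difference, in log2, was 2.67 for Csf2rb, 2.59 for Csf2rb2 and -0.98 for Csf1r. Normal-marker and germline differences also pointed opposite ways for Csf2rb (1.48) and Csf2ra (0.52), although the normal-marker differences themselves were small (0.10 and 0.02). For Csf2rb the normal-marker difference was -0.11 with the strongest transcript in place of the sum, which ends the opposite direction. None of these differences of differences was tested, since each group is 1 library. The conditional and germline comparisons use different control libraries, which differed by 0.52 for Csf2rb and 0.54 for Csf2rb2.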

How the results depend on the processing

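No receptor passed the 4-fold rule as planned. With a 2-fold threshold the counts were 3 in the aberrant-marker comparison, 0 in the normal-marker comparison, 4 between aberrant-marker and normal-marker macrophages, 3 in the germline comparison and 1 between the controls. With a floor of 5 FPKM, 1 receptor (Csf3r) passed 4-fold in the germline comparison. With the wild type in place of the conditional control, 1 (Tgfbr2) passed it in aberrant-marker macrophages. The other settings, and each run left out, left every 4-fold count at 0. At 2-fold, Csf2rb2 joined the germline count with columns scaled to a common sum or without the second germline run, a floor of 5 FPKM added Csf3r to the lower genes of the aberrant-marker and germline comparisons, and Tgfbr2 left the aberrant-marker counts when the strongest transcript replaced the sum. With the other control, all 3 germline calls (Csf2rb, Tgfbr1, Tgfbr2) and the aberrant-marker calls of Csf2rb and Csf2rb2 were lost, and Il4ra was called in the germline knockout. With a pseudocount of 0.1 FPKM the germline difference of Csf3r was -5.57 in place of -3.28. Median-of-ratios scaling raised the germline differences by 0.13 in log2 and did not change which receptors passed 2-fold. Of the 8 receptors, none that passed 2-fold changed direction under these settings. Signs did change for values near 0, namely Tgfbr1 and Tgfbr2 in the normal-marker comparison and Csf3r between aberrant-marker and normal-marker macrophages when a run was left out, Csf2rb in the normal-marker comparison with the strongest transcript (-0.11), and Csf1r between the controls. With 1 library per group, depth is not the limit for genes above 20 FPKM, but the missing replicate library is. For Csf3r in the germline knockout, where 1 read was worth 0.0615 FPKM on 2 kb, depth does limit the size of the difference.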

Other observations

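Among 10 measured factors and markers of monocytes and macrophages, Irf5, an interferon regulatory factor, was at 435 FPKM in the aberrant-marker and 48.7 FPKM in the normal-marker library, against 54.9 FPKM in the conditional control, and at 89.0 FPKM in the germline knockout, against 45.0 FPKM in the wild type. Mertk, a receptor for the uptake of dead cells, was at 8.72 FPKM in aberrant-marker and 82.8 FPKM in normal-marker macrophages, against 73.0 FPKM in the conditional control, and at 38.0 FPKM in the germline knockout, against 70.4 FPKM in the wild type. In this list 1 gene was higher and 1 lower at 4-fold in the aberrant-marker comparison, beside 4.09% and 3.76% of all genes. No link of these genes to Csf1r or Csf1 was tested.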
